A study of Mus musculus with 6 samples.

Results

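The genes described here are the ADAM, ADAMTS and ADAMTS-like metalloprotease families, taken as every entry of the count table whose symbol starts with Adam and a number or with Adamts. That rule gave 57 of 55571 entries: 33 ADAM, 19 ADAMTS and 5 ADAMTS-like genes. They were measured by RNA sequencing in E0771, a mouse mammary carcinoma cell line, in 3 libraries of cells expressing wild-type Malt1 (Malt1-WT) and 3 libraries of cells with a vector control. Both groups were unstimulated. Which promoter drives Malt1, and whether each cell population is a single clone, was left unstated by the labels. Separate cultures are not stated for the replicates either, so p-values here refer to the spread among these 6 libraries alone, and that spread may be technical.

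ADAM proteins are membrane-anchored proteases with a disintegrin domain, best known as sheddases that cut growth factors, cytokines and receptors loose from the cell surface. ADAMTS proteins are secreted relatives that carry thrombospondin repeats and cut matrix proteins such as versican, aggrecan, procollagen and fibrillin-associated proteins. ADAMTS-like proteins have the repeats without a protease domain. MALT1 is a scaffold and paracaspase upstream of NF-kB.

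Of the 57 genes, 22 passed the filter on low counts (a minimum count of 10 with the groups given) and count here as expressed, 21 had some counts but did not pass, and 14 had no count in any library. The expressed genes were 9 ADAM, 10 ADAMTS and 3 ADAMTS-like. Only these 22 were tested. Of these 22, 7 were higher and 9 lower in Malt1-WT than in the vector control, and 6 did not pass the test (edgeR quasi-likelihood, adjusted p under 0.05). That is 16 of 22, where 61.2% of all 13594 tested genes were called. The share of called family members is thus not far from the background of this comparison. Higher calls made up 31% and lower calls 30.2% of all tested genes. Of the ADAM genes 2 were higher, 3 lower and 4 did not pass, while of the ADAMTS genes 5 were higher, 3 lower and 2 did not pass. The median log2 fold change was 0.01 for ADAM, 0.28 for ADAMTS and -0.88 for ADAMTS-like genes. Over all 22 members the median log2 fold change was 0, as was that of all tested genes. The median absolute log2 fold change of the 22 members was 0.37, against 0.31 over all tested genes. Of the 22 members, 2 were called with at least a 2-fold difference, Adamts20 and Adamts12, both lower (13.1% of all tested genes). In 16 of the 22 members the 3 libraries of one group lay wholly above those of the other, as in 64.4% of all tested genes.

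**Figure D1:**
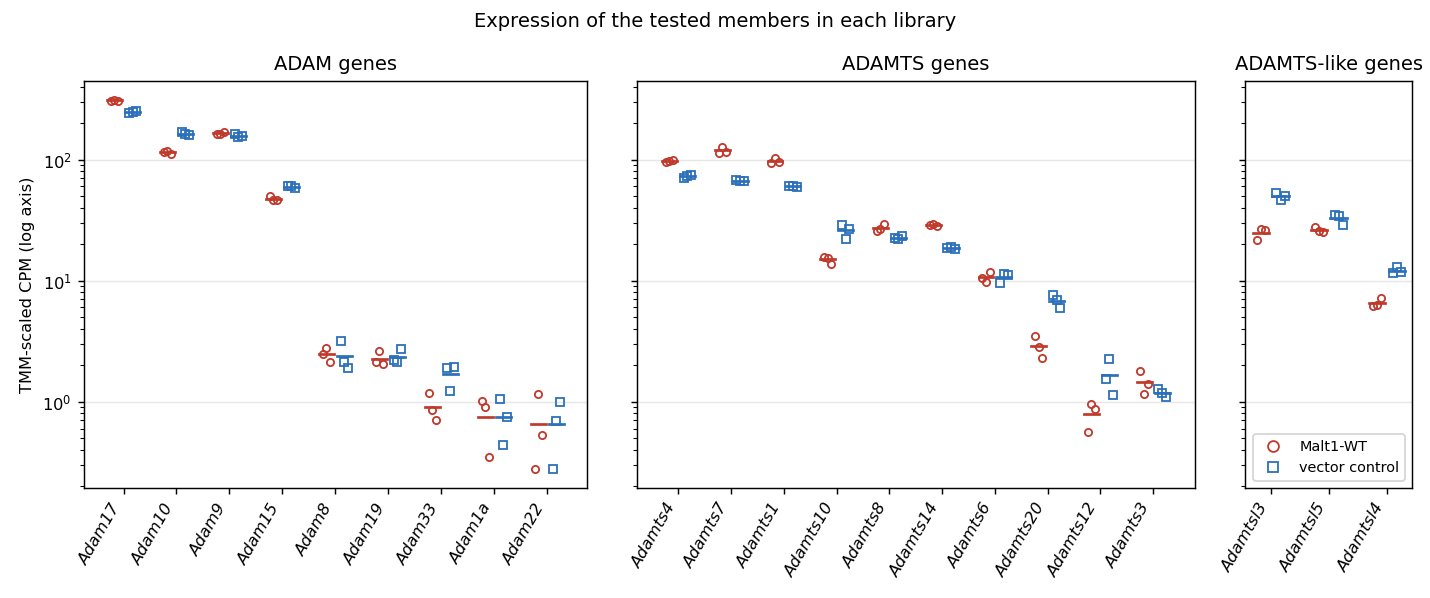
TMM-scaled CPM (log axis) of the 22 expressed members in each library, with red circles for Malt1-WT, blue squares for the vector control and a line at each group mean. Adam17, Adam9 and Adam10 lie highest among ADAM genes, and the 3 ADAMTS-like genes are all lower in Malt1-WT.

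Total counts per library were 17601656 to 20543778 in Malt1-WT and 17615241 to 19874209 in the vector control. Family members took 0.106% to 0.11% of the counts in Malt1-WT and 0.103% to 0.106% in the vector control. Malt1 itself had 5526, 6176 and 5087 counts in Malt1-WT and 517, 633 and 611 in the vector control, which matches the labels. Of the 5 epithelial markers, which summed to 64 to 69.7 CPM in Malt1-WT and 73.1 to 77.5 CPM in the vector control, Krt8 averaged 59.7 ± 1.83 CPM in Malt1-WT and 68.6 ± 2.31 CPM in the vector control (SD, n = 3 each), while Krt18, Krt19 and the adhesion gene Cdh1 averaged at most 0.315 CPM in either group. Epcam averaged 6.23 ± 1.01 CPM in Malt1-WT and 6.31 ± 0.319 CPM in the vector control (SD, n = 3 each). Several markers that define epithelium were thus near 0 in this carcinoma line. The fibroblast markers summed to 357 to 384 CPM in Malt1-WT and 341 to 364 CPM in the vector control, most of it from Pdgfrb and Pdgfra, with Thy1 at 0. Of the 5 tested fibroblast markers 1 was higher, 2 were lower and 2 did not pass, where 61.2% of all tested genes were called. Pdgfrb was higher (log2 fold change 0.57, edgeR adjusted p = 8.65e-20). Pdgfra (-0.48, edgeR adjusted p = 1.24e-15) and Col1a1 (-0.88, edgeR adjusted p = 2.77e-11) were lower. The leukocyte markers summed to 3.36 to 4.15 CPM in Malt1-WT and 3.38 to 5.4 CPM in the vector control. Ptprc and Tyrobp, both among these leukocyte markers, had 4 and 0 counts over the Malt1-WT libraries and 3 and 0 over the vector control libraries. Of the 8 leukocyte markers 3 were tested. Adgre1 was higher in Malt1-WT (81 counts over the Malt1-WT libraries and 3 over the vector control libraries, log2 fold change 4.67, edgeR adjusted p = 1.97e-09). Lyz2 was lower (41 counts over the Malt1-WT libraries and 221 over the vector control libraries, -2.33, edgeR adjusted p = 1.08e-09), and Csf1r did not pass (edgeR adjusted p = 0.061). The part of these markers in the results on the family was not tested. In bulk RNA, fewer cells of a kind and less RNA per cell cannot be told apart.

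The catalytic members share a zinc-binding site, in which 3 histidines hold the metal ion. This site was searched in the translated coding sequence of the coding transcript of each member with the longest coding sequence in the GENCODE M21 annotation of GRCm38, with a pattern that was widened at 1 residue after the first matches were seen. It was found in 39 of the 57 members and in 18 of the 22 expressed ones. The 4 expressed members without it were Adam22 and the 3 ADAMTS-like genes. The following sites are shown because they belong to the members that the results turn on. They differ from each other at more than 1 residue, and 1 of these residues is marked. The sites are printed 5′ to 3′ on the strand of the gene. Capitals mark the 3 histidine codons and, between the second and the third of these, the codon for that residue. Where a site lies on a pair of exons the coordinates enclose the intron.
Adam17 (chr12:21336729-21336764, minus strand, exon 12): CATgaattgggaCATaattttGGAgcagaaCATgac
Adam10 (chr9:70754296-70761588, plus strand, exons 9 and 10): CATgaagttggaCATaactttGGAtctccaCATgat
Adam9 (chr8:24990323-24990358, minus strand, exon 11): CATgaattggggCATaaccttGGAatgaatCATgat
Adamts7 (chr9:90179456-90180643, plus strand, exons 7 and 8): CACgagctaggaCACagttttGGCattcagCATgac
Adamts14 (chr10:61225462-61227123, minus strand, exons 7 and 8): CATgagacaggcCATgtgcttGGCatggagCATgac
Adamts10 (chr17:33538157-33538282, plus strand, exons 9 and 10): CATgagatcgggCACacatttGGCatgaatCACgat
Adamts1 (chr16:85799188-85799545, minus strand, exons 3 and 4): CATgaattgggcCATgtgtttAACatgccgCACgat
Adamts4 (chr1:171253210-171253918, plus strand, exons 3 and 4): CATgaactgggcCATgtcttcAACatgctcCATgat
Adamts8 (chr9:30952721-30953381, plus strand, exons 3 and 4): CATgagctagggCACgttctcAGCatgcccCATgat
Adamts20 (chr15:94353675-94355296, minus strand, exons 8 and 9): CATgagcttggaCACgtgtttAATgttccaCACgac

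This codon reads glycine in Adam17, Adam10, Adam9, Adamts7, Adamts14 and Adamts10. It reads asparagine in Adamts1, Adamts4 and Adamts20 and serine in Adamts8. These last 4 genes are the expressed members of the proteoglycanase group, whose enzymes are known for cutting versican and aggrecan. The codon does not define that group, since Adamts5, a member with 1 count in all, has glycine. The residue does not go with the direction of change, since Adamts20 was lower and the other 3 higher in Malt1-WT.

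The main ADAM sheddases moved in different directions. Adam17 (chr12:21323509-21373632, minus strand, GRCm38), which encodes TACE, the enzyme that releases TNF, was counted at 307, 313 and 305 CPM in Malt1-WT and at 244, 249 and 250 CPM in the vector control. All 3 Malt1-WT libraries were above all 3 vector control libraries, and the log2 fold change was 0.32 (SE 0.031, edgeR adjusted p = 6.68e-13), a 1.24-fold difference. Adam10 (chr9:70678997-70780229, plus strand), which encodes the main sheddase of Notch receptors and many adhesion proteins, had 116, 118 and 112 CPM in Malt1-WT and 169, 161 and 159 CPM in the vector control. Here every Malt1-WT library was below every vector control library, with a log2 fold change of -0.50 (SE 0.037, edgeR adjusted p = 9.54e-17), 1.41-fold lower. Exons of Adam17 overlap those of Iah1 on the opposite strand by 311 bases. Iah1 averaged 15.3 ± 0.327 CPM in Malt1-WT and 14.3 ± 0.827 CPM in the vector control (SD, n = 3 each) and did not pass the test (edgeR adjusted p = 0.336).

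The ratio of Adam17 to Adam10 counts within a library does not depend on how libraries are scaled. It was 2.65, 2.65 and 2.71 in Malt1-WT and 1.44, 1.55 and 1.58 in the vector control, with means of 2.67 ± 0.0338 in Malt1-WT and 1.52 ± 0.0718 in the vector control (SD, n = 3 each). The groups did not overlap. This pair was set side by side with its values known, so the ratio is a description without a test.

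**Figure D2:**
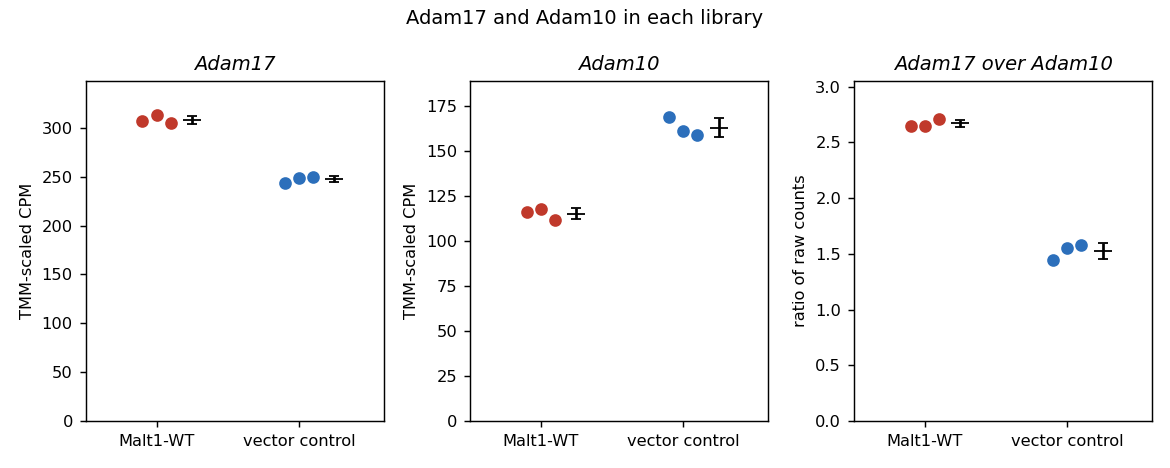
TMM-scaled CPM of Adam17 and of Adam10, and the ratio of their raw counts, in each library, with red points for Malt1-WT, blue points for the vector control and the mean ± SD beside them (n = 3 per group). The ratio lies between 2.65 and 2.71 in Malt1-WT, above 1.44 to 1.58 in the vector control.

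Adam9 (chr8:24949611-25016927, minus strand), which encodes a further widely expressed sheddase, was close to level between the groups. It had 164, 164 and 169 CPM in Malt1-WT and 161, 154 and 155 CPM in the vector control, with a log2 fold change of 0.08 (SE 0.035, edgeR adjusted p = 0.042). The 2 groups were separated by only a narrow gap. The call was lost in 10 of 15 alternatives, among them library size only (0, adjusted p = 0.923), DESeq2 (adjusted p = 0.0684) and the replicate block (adjusted p = 0.0661). Leaving out Malt1-WT replicate 1, 2 or 3 (edgeR adjusted p = 0.0573, 0.0801 and 0.197) or vector control replicate 2 or 3 (0.171 and 0.141) lost it too, and over all alternatives the adjusted p was 0.0377 to 0.923.

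Adam15 (chr3:89338542-89349996, minus strand), which encodes an ADAM with an integrin-binding motif in its disintegrin domain, was lower in Malt1-WT. Its levels were 49.9, 46 and 46.4 CPM in Malt1-WT and 60.2, 60 and 57.9 CPM in the vector control, without overlap. The log2 fold change was -0.32 (SE 0.053, edgeR adjusted p = 5.55e-07).

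The other ADAM genes of body tissues were low. Adam33, known from studies of the airway, had 21, 17 and 12 counts in Malt1-WT and 34, 25 and 39 in the vector control, and passed as lower (log2 fold change -0.88, SE 0.33, edgeR adjusted p = 0.018). This call did not survive leaving out Malt1-WT replicate 3 (edgeR adjusted p = 0.075), vector control replicate 1 (0.0616) or vector control replicate 3 (0.0838), and over all alternatives the adjusted p was 0.00731 to 0.0838. Adam8, typical of leukocytes, averaged 2.45 ± 0.345 CPM in Malt1-WT and 2.40 ± 0.702 CPM in the vector control (SD, n = 3 each). Adam19, which encodes a neuregulin sheddase, averaged 2.26 ± 0.297 CPM in Malt1-WT and 2.35 ± 0.336 CPM in the vector control (SD, n = 3 each). Neither of these 2 passed the test (edgeR adjusted p = 0.874 and 0.857).

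Adam22, which encodes a protease-inactive receptor for LGI proteins, had uneven counts of 5, 23 and 9 in Malt1-WT and 5, 14 and 20 in the vector control (edgeR adjusted p = 0.988). Adam1a, a fertilin subunit gene of sperm, had 18, 18 and 6 counts in Malt1-WT and 19, 9 and 15 in the vector control (edgeR adjusted p = 0.938). In both genes the groups overlapped over most of their ranges. Exons of Adam1a overlap the annotated exons of Mapkapk5, Gm42878 and, on the opposite strand, Tmem116, so its reads cannot all be assigned with certainty.

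**Figure D3:**
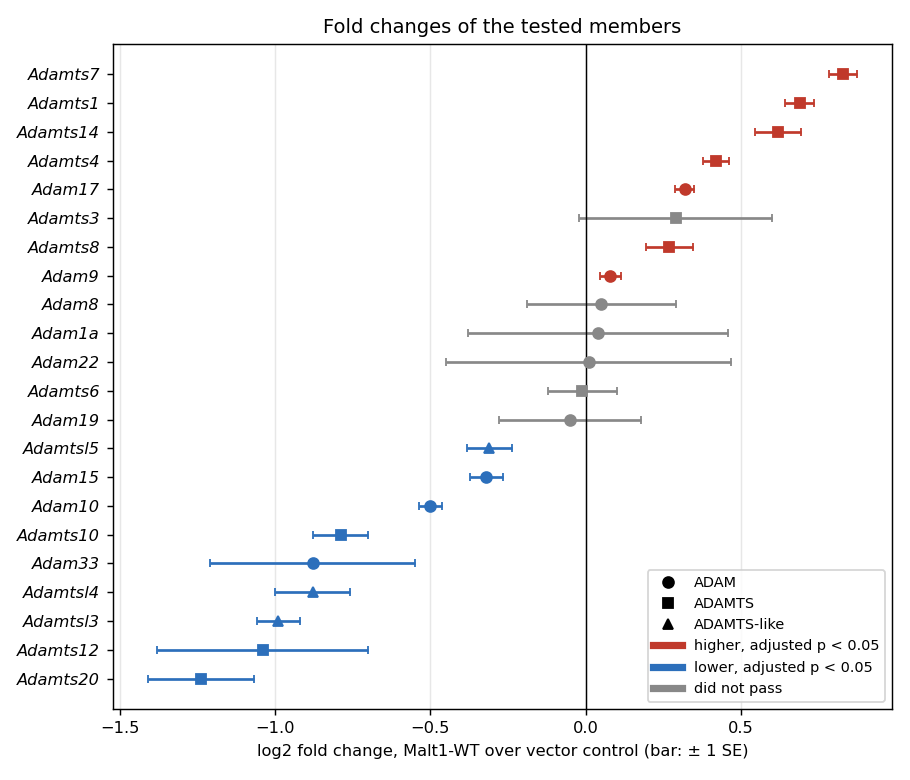
Log2 fold change of Malt1-WT over vector control for the 22 expressed members, with bars of ± 1 SE, symbols for the family, and colour for the call at an adjusted p under 0.05 (edgeR quasi-likelihood test). The points run from -1.24 for Adamts20 to 0.83 for Adamts7, and all 3 ADAMTS-like genes lie below 0.

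Among the proteoglycanases, 3 of 4 expressed genes were higher in Malt1-WT and 1 was lower, where 31% of all tested genes were higher and 30.2% lower. Adamts1 (chr16:85793827-85803113, minus strand) had 93.1, 103 and 95.1 CPM in Malt1-WT and 60.8, 61 and 59.6 CPM in the vector control (log2 fold change 0.69, SE 0.046, edgeR adjusted p = 1.29e-18). Adamts4 (chr1:171250421-171260637, plus strand) had 94.6, 97.1 and 99.5 CPM in Malt1-WT and 70.6, 73.3 and 74.2 CPM in the vector control (0.42, SE 0.043, edgeR adjusted p = 4.71e-12). Adamts4 and Adamts1 encode aggrecanases, and in both genes the Malt1-WT libraries were all above the vector control libraries. Adamts8 (chr9:30942562-30963838, plus strand) had 25.5, 26.6 and 29.2 CPM in Malt1-WT and 22.4, 21.9 and 23.3 CPM in the vector control (0.27, SE 0.075, edgeR adjusted p = 0.00183), also without overlap but with a smaller difference. Adamts20 (chr15:94270163-94465418, minus strand), which acts on versican in the skin and is needed for melanoblast survival, had 3.47, 2.85 and 2.28 CPM in Malt1-WT and 7.62, 6.88 and 5.92 CPM in the vector control. Its log2 fold change of -1.24 (SE 0.17, edgeR adjusted p = 1.11e-08), 2.36-fold lower, was the lowest among the 22 expressed members.

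A pair of silent proteoglycanase genes lies beside expressed ones. Adamts5, which encodes the other main aggrecanase, had 1 count in Malt1-WT and 0 in the vector control. It lies 53.1 kb from Adamts1 on chromosome 16, with 0 annotated protein-coding genes in between. Adamts15, which had no count in any library, lies 20.1 kb from Adamts8 on chromosome 9, again with 0 protein-coding genes in between. In both pairs an expressed gene thus has a neighbour of the same group at or near 0. Adamts9 had no count either.

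Exons of Adamts8 overlap those of Gm29724 by 489 bases on the opposite strand, and Gm29724 had at most 8 counts in a library. Since the counting may or may not have used strand, reads from this overlap cannot be told apart.

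The procollagen N-propeptidases trim the amino end of fibrillar procollagens. Adamts14 (chr10:61197112-61273438, minus strand) had 28.9, 29.4 and 28.1 CPM in Malt1-WT and 18.7, 18.9 and 18.4 CPM in the vector control, so that the groups lay well apart (log2 fold change 0.62, SE 0.074, edgeR adjusted p = 2.85e-10). Adamts3, which also processes VEGF-C, had 32, 23 and 24 counts in Malt1-WT and 23, 24 and 22 in the vector control and did not pass (edgeR adjusted p = 0.445). Adamts2, the main enzyme of the group in skin, had 0, 0 and 0 counts in Malt1-WT and 5, 1 and 0 in the vector control. It was too low to test. Per length, Adamts14 had 5.53 ± 0.125 RPKM in Malt1-WT and 3.59 ± 0.0399 RPKM in the vector control (SD, n = 3 each), the highest level of this group.

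Adamts7 and Adamts12 encode a related pair of enzymes that cut cartilage oligomeric matrix protein, and they moved in opposite directions. Adamts7 (chr9:90163069-90208071, plus strand) had 114, 128 and 115 CPM in Malt1-WT and 67.5, 66.6 and 66.6 CPM in the vector control. With a log2 fold change of 0.83 (SE 0.045, edgeR adjusted p = 1.80e-22), 1.78-fold, it was the highest of the 22 expressed members. Adamts12 (chr15:11064790-11349231, plus strand) had 10, 19 and 15 counts in Malt1-WT and 28, 46 and 23 in the vector control, without overlap but with few counts (-1.04, SE 0.34, edgeR adjusted p = 0.00736). Without vector control replicate 2, which had the 46 counts, its log2 fold change was -0.75 and its call was lost (adjusted p = 0.112, against 0.00309 to 0.112 over all alternatives). Exons of Adamts7 overlap those of Tbc1d2b on the opposite strand by 122 bases, and Tbc1d2b was also higher (2.39 ± 0.178 CPM in Malt1-WT and 0.700 ± 0.0957 CPM in the vector control, SD, n = 3 each, edgeR adjusted p = 2.09e-06). Tbc1d2b had at most 52 counts in any library, and its part in the Adamts7 result was not tested.

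Adamts10 and Adamts6 are paralogs tied to fibrillin microfibrils. Adamts10 (chr17:33524204-33553782, plus strand) had 15.8, 15.5 and 13.6 CPM in Malt1-WT and 28.8, 22.1 and 26.9 CPM in the vector control (log2 fold change -0.79, SE 0.089, edgeR adjusted p = 8.15e-11), with no overlap between groups. Adamts6 had 10.6, 9.69 and 11.7 CPM in Malt1-WT and 9.61, 11.3 and 11.1 CPM in the vector control, with overlapping groups (-0.01, SE 0.11, edgeR adjusted p = 0.954).

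All 3 expressed ADAMTS-like genes were lower in Malt1-WT, where 30.2% of all tested genes were called lower. Adamtsl3 (chr7:82335694-82614450, plus strand) had 21.8, 26.9 and 26.1 CPM in Malt1-WT and 53.1, 46 and 49.9 CPM in the vector control, 1.99-fold lower (log2 fold change -0.99, SE 0.069, edgeR adjusted p = 6.3e-18). Adamtsl4 (chr3:95676201-95687917, minus strand), which encodes a fibrillin-binding protein needed to hold the eye lens in place, had 6.15, 6.34 and 7.25 CPM in Malt1-WT and 11.5, 13 and 11.7 CPM in the vector control (-0.88, SE 0.12, edgeR adjusted p = 7.65e-09). In both genes every Malt1-WT library was below every vector control library. Adamtsl5 (chr10:80339110-80348412, minus strand) had 27.9, 25.8 and 25.3 CPM in Malt1-WT and 35, 34.3 and 28.7 CPM in the vector control (-0.31, SE 0.073, edgeR adjusted p = 2.34e-04). One vector control library of Adamtsl5 lay close to the Malt1-WT range. Adamtsl1 and Adamtsl2 had 5 and 1 counts over the Malt1-WT libraries and 2 and 2 over the vector control libraries.

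Levels can be compared between genes only per length, and so they were also divided by the exonic length of each gene in the M21 annotation, which gives RPKM. On that scale Adam17, Adam9 and Adam10 were the highest members in both groups. In Malt1-WT the order was Adam17 (43.1 ± 0.623 RPKM), Adam9 (40.3 ± 0.6 RPKM) and Adam10 (23.5 ± 0.593 RPKM), and in the vector control it was Adam9 (38.1 ± 0.861 RPKM), Adam17 (34.6 ± 0.450 RPKM) and Adam10 (33.2 ± 1.16 RPKM, SD, n = 3 each). The values of Adam17 and Adam10 in the vector control differed by less than the sum of their SDs. Next in Malt1-WT came Adamts4 (20.2 ± 0.503 RPKM), Adamts7 (19.0 ± 1.27 RPKM) and Adamts1 (18.3 ± 1.02 RPKM), whose ranges of 1 SD overlap between neighbours. In the vector control these were Adamts4 (15.1 ± 0.389 RPKM), Adamts1 (11.4 ± 0.139 RPKM) and Adamts7 (10.7 ± 0.0827 RPKM). Adam15, with 7.72 ± 0.348 RPKM in Malt1-WT and 9.66 ± 0.201 RPKM in the vector control, followed in both groups. Below it in Malt1-WT came Adamts8 (5.87 ± 0.422 RPKM), Adamtsl5 (5.58 ± 0.294 RPKM) and Adamts14, which lay within 1 SD of each other. In the vector control they were Adamtsl5 (6.92 ± 0.725 RPKM), Adamtsl3 (6.41 ± 0.455 RPKM) and Adamts8 (4.88 ± 0.151 RPKM), of which the first 2 overlapped within 1 SD. Exonic lengths take in every annotated transcript, so a gene with long rare transcripts is set too low.

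Of the 21 ADAM genes outside the list of body tissue members, most of which are known from testis, only Adam1a passed the filter on low counts, 12 had a few counts and 8 had none. Adam4 was the highest of those that did not pass, with 5, 17 and 8 counts in Malt1-WT and 4, 7 and 8 in the vector control. Adam32 had 5, 4 and 3 counts in Malt1-WT and 2, 5 and 6 in the vector control. Adam32, Adam5, Adam3 and Adam18, all too low to test, lie in a row next to Adam9 on chromosome 8, with gaps of 0.8, 11.8, 1.2 and 2.5 kb from Adam9 outward and no annotated protein-coding gene in between. Among the ADAM genes of body tissues, Adam11, which encodes a protease-inactive brain ADAM, had 4, 9 and 7 counts in Malt1-WT and 10, 6 and 8 in the vector control. The other members with counts that did not pass had at most 5 in any library: Adam2, Adam3, Adam5, Adam18, Adam1b, Adam20, Adam21, Adam24, Adam25, Adam30, Adamts2, Adamts5, Adamts13, Adamts17, Adamts18, Adamts19, Adamtsl1 and Adamtsl2. The 14 genes without a count were Adam6a, Adam6b, Adam7, Adam12, Adam23, Adam26a, Adam26b, Adam28, Adam29, Adam34, Adam39, Adamts9, Adamts15 and Adamts16. A count of 0 over the 3 libraries of a group allows a level of up to 0.0545 CPM in Malt1-WT and 0.0512 CPM in the vector control (3 counts over the group, for counting error only). Adam12, a member often studied in breast tumours, was thus not detectable at this depth.

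The stretch of 250 bases before the annotated start was compared between expressed and silent members, for the 31 members with an entry in the RefSeq promoter set of GRCm38.p6. The expressed members had a median observed-to-expected CpG ratio of 0.68 (0.19 to 0.98, 15 genes with 17 starts), the members with too few counts 0.13 (0 to 0.96, 9 genes) and the members without a count 0.10 (0 to 0.9, 7 genes). Over all 32851 promoters of that length the median was 0.37. Not every start lies at a GENCODE transcript start: that of Adam34, without a count, is 33927 bases from the nearest. Adam19 has more than 1 start, of which 1 is 1490 bases from the nearest. The Adam19 start with the ratio of 0.19 lies inside the gene. The ranges overlapped widely, since Adam23 and Adamts9, both without a count, had 0.90 and 0.70. The promoters of Adam17 and Adam10, the pair of sheddases that moved in opposite directions, are shown with that of Adam26b, which had no count, with every CpG in capitals and the strand of the gene read 5′ to 3′.
Adam17 (chr12:21373633-21373882, minus strand): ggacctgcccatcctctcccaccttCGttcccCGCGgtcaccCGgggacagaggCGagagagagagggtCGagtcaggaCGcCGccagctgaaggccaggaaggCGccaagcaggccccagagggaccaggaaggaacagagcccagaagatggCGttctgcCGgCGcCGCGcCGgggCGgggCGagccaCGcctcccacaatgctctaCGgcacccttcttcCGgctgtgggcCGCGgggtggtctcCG
Adam10 (chr9:70678732-70678981, plus strand): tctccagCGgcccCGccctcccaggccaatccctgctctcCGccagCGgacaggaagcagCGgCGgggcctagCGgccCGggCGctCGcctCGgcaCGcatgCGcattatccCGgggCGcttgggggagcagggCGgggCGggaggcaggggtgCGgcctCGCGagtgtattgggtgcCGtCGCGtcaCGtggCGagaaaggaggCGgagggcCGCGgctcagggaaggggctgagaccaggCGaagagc
Adam26b (chr8:43528138-43528387, minus strand): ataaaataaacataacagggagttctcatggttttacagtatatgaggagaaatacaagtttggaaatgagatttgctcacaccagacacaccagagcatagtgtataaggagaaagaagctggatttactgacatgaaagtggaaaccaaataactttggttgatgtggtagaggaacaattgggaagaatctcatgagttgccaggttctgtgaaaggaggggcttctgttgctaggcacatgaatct

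Adam17 has 23 CpG in this window, Adam10 has 29 and Adam26b has 0. Adam26b is at the low end of the members without a count, of which Adam23 has 27 CpG and Adamts9 has 22. The same windows were searched on both strands for the NF-kB consensus, named here only, and for the AP-1 motif TGANTCA. Of the 17 starts of expressed members 1, at Adam19, held an NF-kB match and the same start held an AP-1 match. Among the 9 members with too few counts, 1 (Adam1b) held an NF-kB match and 2 (Adam20 and Adam25) an AP-1 match, and among the 7 members without a count, 0 held an NF-kB match and 1 (Adam29) an AP-1 match. Over all promoters the shares were 3.9% and 6.75%. A window without a match says only that these letters are not in it.

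The genes that act with these proteases were read from 4 lists chosen with earlier results of these data known. Among regulators of ADAM10 and ADAM17, 11 of 19 were expressed, of which 5 were higher, 4 lower and 2 did not pass (median log2 fold change -0.01, where 61.2% of all tested genes were called). Rhbdf2 encodes iRhom2, an escort of ADAM17 to the cell surface. It averaged 111 ± 1.78 CPM in Malt1-WT and 47.7 ± 0.789 CPM in the vector control (SD, n = 3 each). Its log2 fold change was 1.23 (edgeR adjusted p = 1.94e-29). Rhbdf1, of the same list, was slightly lower (log2 fold change -0.11, edgeR adjusted p = 0.0376), and Frmd8 did not pass (-0.02, edgeR adjusted p = 0.656). Furin, which encodes the convertase that removes the prodomain of both ADAM and ADAMTS enzymes, averaged 265 ± 8.52 CPM in Malt1-WT and 142 ± 5.51 CPM in the vector control (SD, n = 3 each, 0.90, edgeR adjusted p = 2.18e-28). Reck, a membrane-bound protease inhibitor gene with few counts (78 over the Malt1-WT libraries and 34 over the vector control libraries), was higher by 1.28 on the log2 scale (edgeR adjusted p = 0.00204). Timp2, a tissue inhibitor of metalloproteinases, was lower (log2 fold change -0.80, 284 ± 8.29 CPM in Malt1-WT and 496 ± 6.59 CPM in the vector control, SD, n = 3 each, edgeR adjusted p = 3.76e-29). Timp3, which encodes the inhibitor known to act on ADAM17 and the aggrecanases, had 0 counts over the Malt1-WT libraries and 5 over the vector control libraries.

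Genes of ADAM10 and ADAM17 substrates were higher in 14, lower in 8 and did not pass in 4 of 26 expressed cases out of 36 listed, with a median of 0.56, against 0 over all tested genes, of which 61.2% were called. Of the 26, 12 were called with at least a 2-fold difference, where the share over all tested genes was 13.1%. The largest differences were in Tnf (7.78), the adhesion receptor gene Icam1 (2.80), the membrane chemokine gene Cxcl16 (2.75) and the EGF receptor ligand gene Ereg (2.49), all higher with an edgeR adjusted p of at most 3.83e-23. Tnf averaged 245 ± 4.03 CPM in Malt1-WT and 1.12 ± 0.204 CPM in the vector control, and Ereg 756 ± 9.64 CPM in Malt1-WT and 135 ± 2.33 CPM in the vector control (SD, n = 3 each). Ligands and receptors that are shed by these enzymes were among both directions. The EGF receptor ligand genes Hbegf (1.99) and Areg (1.83), Csf1 (1.93), which encodes the macrophage growth factor, and the TNF receptor gene Tnfrsf1b (2.22) were higher, with an edgeR adjusted p of at most 1.67e-31. The growth factor gene Kitl (-0.77), the endocytic receptor gene Lrp1 (-0.60) and the interleukin receptor gene Il6ra (-0.58) were lower, with an edgeR adjusted p of at most 1.3e-06. Notch1, cut by ADAM10, averaged 36.3 ± 2.2 CPM in Malt1-WT and 76.9 ± 3.58 CPM in the vector control (SD, n = 3 each, -1.08, edgeR adjusted p = 1.51e-23), and Notch2 was higher by 0.14 (edgeR adjusted p = 1.05e-04). Shedding of the proteins was not measured.

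Of the ADAMTS substrate genes 10 of 17 were expressed, with 2 higher, 6 lower and 2 that did not pass (median -0.50), where 31% of all tested genes were higher and 30.2% lower. Vcan, which encodes versican, averaged 143 ± 8.98 CPM in Malt1-WT and 323 ± 4.39 CPM in the vector control (SD, n = 3 each, log2 fold change -1.18, edgeR adjusted p = 1.09e-32). The collagen genes Col2a1 (-1.06), Col1a1 (-0.88) and Col3a1 (-0.66), the fibrillin gene Fbn1 (-0.79) and the fibronectin gene Fn1 (-0.35) were lower as well, with an edgeR adjusted p of at most 3.80e-05, while Vwf, the substrate of ADAMTS13, was higher (1.82, edgeR adjusted p = 3.9e-13). Adamts13 itself had 4 counts over the Malt1-WT libraries and 1 over the vector control libraries. The other substrate gene called higher was Vegfc (log2 fold change 0.71, edgeR adjusted p = 8.09e-04). Vwf is also an endothelial marker here, and Col1a1 is also a fibroblast marker. Of the 5 endothelial markers 3 were expressed and 2 of these, Vwf and Pecam1, were higher, with a sum over the list of 17.1 to 18.4 CPM in Malt1-WT and 6.71 to 7.71 CPM in the vector control. Kdr and Tek, which define endothelium, were near 0 in both groups, with 11 and 3 counts over the Malt1-WT libraries and 6 and 3 over the vector control libraries. The part of other cell types in the Vwf and Col1a1 results was not tested.

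Among ADAMTS cofactors and modifiers, 4 of 7 were expressed, of which 1 was higher and 3 lower (median -0.32), against the same 31% and 30.2% of all tested genes. The 7 include Adamdec1, an ADAM-like protease gene rather than a cofactor or modifier. It was too low to test, with 1 count over the Malt1-WT libraries and 3 over the vector control libraries. Pofut2, which encodes the O-fucosyltransferase of thrombospondin repeats, was higher (84.8 ± 2.64 CPM in Malt1-WT and 60.5 ± 1.47 CPM in the vector control, SD, n = 3 each, log2 fold change 0.49, edgeR adjusted p = 2.42e-13). B3glct, which encodes the enzyme that extends this fucose with glucose, was lower (40.6 ± 0.335 CPM in Malt1-WT and 54.7 ± 1.84 CPM in the vector control, SD, n = 3 each, -0.43, edgeR adjusted p = 1.95e-09). Ccbe1, which encodes the cofactor of ADAMTS3 in VEGF-C activation, was lower (-0.22, edgeR adjusted p = 3.16e-06). Papln, which encodes papilin, a relative of the ADAMTS-like proteins, was lower (-1.05, edgeR adjusted p = 0.00357), with 50 counts over the Malt1-WT libraries and 111 over the vector control libraries.

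**Figure D4:**
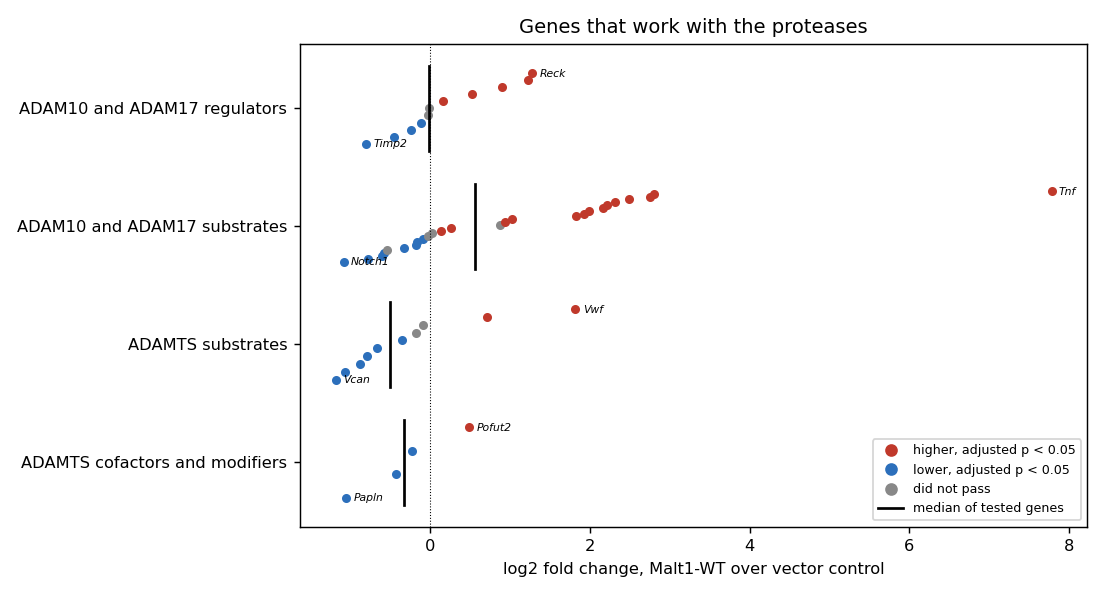
Log2 fold change of Malt1-WT over vector control for the expressed genes of 4 lists, with 1 point per gene coloured by its call at an adjusted p under 0.05, a black line at the list median and the genes at both ends named. Substrates of ADAM10 and ADAM17 have a median of 0.56 and reach 7.78 for Tnf, while ADAMTS substrates have a median of -0.50.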

How the data were processed

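The submitters' processing notes name STAR 2.7.3a, featureCounts 1.6.3, Trim Galore 0.6.0 and the build GRCm38.p6 (mm10), and libraries came from the NEBNext Ultra II Directional kit, per the labels' protocols. For counting, neither annotation nor strandedness is stated in the sources used here. The authors deposited raw counts per gene symbol, 1 column per library, and, per the file headers, a log2 fold change that they computed. Over the 22 tested members, the log2 fold change in the authors' deposited table was within 0.06 of the value given here.

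Counts were fitted over the whole table with edgeR 4.0.16 in R 4.3.3 (filterByExpr with a minimum count of 10, TMM, robust quasi-likelihood test without a block), and p-values were adjusted by Benjamini-Hochberg over all 13594 tested genes. The SE is the log2 fold change divided by the square root of F. Every expressed member was named, as were, per related list, at most 4 called genes of the greatest change; others were named after their values were seen. Members and lists were chosen with earlier results of these data known. The tests were checked on simulated counts. DESeq2 1.42.0 and limma 3.58.1 (voom) were alternatives. RPKM is TMM-scaled CPM divided by exonic length in kb.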

Additional observations from a re-analysis of the deposited data

How the results depend on the processing

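The members were refitted under 15 alternatives (scaling, tool, filter, replicate block, the robust option, and each library left out). Of the 16 called members, 13 kept their direction and their call in all 15; of the others, Adam33 and Adamts12 kept their direction, and Adam9 was at 0 with library size only. The number called was 14 to 15 with 1 library left out (6 to 7 higher, 8 to 9 lower) and 15 to 16 otherwise. The labels do not say whether the replicate numbers pair the samples. No shared effect was seen between libraries of the same number (correlations of -0.0261, -0.0207 and 0.0174). With a replicate block 15 members were called, 6 higher and 9 lower. With 1 library left out 22 members were still expressed. The number expressed was 24 with a minimum count of 5 and 20 with at least 1 CPM in 3 libraries. At least 1 count in any library was found for 43 members.

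Direction changed in 5 members that did not pass. With 1 library left out the log2 fold change was -0.08 to 0.05 for Adamts6, -0.10 to 0.29 for Adam8, -0.18 to 0.07 for Adam19, -0.23 to 0.36 for Adam1a and -0.72 to 0.43 for Adam22. With library size only it was -0.03 for Adam8 and for Adam1a and -0.06 for Adam22. Adam22 was also at -0.01 with upper quartile scaling and with no filter on low counts, at -0.04 with limma-voom and at 0 with the replicate block. The median over all tested genes was -0.003 in the main fit, -0.079 with library size only and -0.021 with upper quartile scaling. With no filter on low counts that median was 0.024. The cause of the changes of direction was not tested.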
